A study of Mus musculus with 5 samples.

Results

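RXRα binding was examined around 9 genes that encode PU.1 and other transcription factors of the myeloid lineage, namely Spi1, Spib, Ets2, Fli1, Irf8, Irf4, Egr2, Zeb2 and Id2, in alveolar macrophages (AMs). A peak was counted for a gene when, of all 21924 protein-coding genes of the GENCODE M21 annotation, that gene had the transcription start site (TSS) closest to the midpoint of the peak. By this rule, 37 of the 14808 peaks in 4 peak lists belonged to the 9 genes. The lists came from HT-ChIPmentation, in which chromatin bound by a protein is pulled down with an antibody, here against RXRα, and the sequencing library is built on the beads by a transposase. AMs, the resident phagocytes of the lung airspace, were washed out of the lungs of mice and sorted by flow cytometry. Mice of both genotypes were 9 weeks old. All mice carried floxed alleles of both Rxra and Rxrb (Rxrabfl/fl). WT A and WT G were CD11cCre- mice, and KO A and KO G were CD11cCre+ mice, in which Cre driven from the Cd11c gene removes both receptors in cells that express Cd11c, AMs among them. Peaks were called against an input library from CD11cCre- AMs, which is not analysed here. Nothing in the labels says that libraries of 1 genotype came from separate animals, so the spread between them may be technical.

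RXRα is a nuclear receptor that binds DNA mostly as a heterodimer, often at a DR1 element, a pair of AGGTCA hexamers with 1 base between them. PU.1, encoded by Spi1, is the ETS-family factor on which all macrophages depend, and it opens many of the enhancers that other factors use in these cells. Its binding sites have a GGAA core, and C/EBP, RUNX and AP-1 factors often bind close by. Enhancers of the myeloid factor genes can lie far from the gene they serve, so the nearest TSS is a label of position and not of a target.

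WT G had the longest list with 9766 peaks, followed by WT A with 4751, KO G with 208 and KO A with 83. The lists hold no read totals, and the read numbers in a supplementary table of the study were not used here. Fragments per summit were solved from the fold enrichment and −log10 p of each peak, giving a genome-wide background of 1.26 fragments in WT A, 0.551 in WT G, and 0.966 and 0.936 in KO A and KO G. Long fragments raise this level, so relative depth was taken as the background, freed of the scaling of the ChIP pileup in WT A, divided by the shortest peak, which stood for the fragment length (215 bp for WT G, 116 bp for WT A, 138 bp for KO A and 102 bp for KO G). On either measure WT G was the shallowest library. After the division, WT A was deeper than WT G by 4.77-fold, KO G by 3.58-fold and KO A by 2.73-fold, and the order of the KO libraries rests on it. A peak in WT G could rest on as few as 5 fragments, whereas the lowest number was 8 in KO G and 10 in both KO A and WT A.

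The sequences under the summits are shown first, because the rest of the account refers to them. Each is a window of the reference genome (RefSeq, GRCm38.p6, the mm10 build) that runs 50 bp to each side of a summit, 5′ to 3′ on the plus strand. The first set holds the strongest peak counted for Spi1 and the summits of both WT lists within a Spi1 intron. It also holds the windows of Fli1, Id2 and Ets2 that had a PU.1 or DR1 match, all from WT A. Capitals mark a match to the PU.1 letters GAGGAAGT on either strand, or, for Ets2, to a DR1 with at most 2 mismatches. The Spi1 intron windows held no match. The Fli1 window is labelled by its place within Fli1, but its peak is classed as exonic below, for an exon of the overlapping gene model Gm38346.
Spi1, upstream, WT G summit, chr2:91089157-91089257: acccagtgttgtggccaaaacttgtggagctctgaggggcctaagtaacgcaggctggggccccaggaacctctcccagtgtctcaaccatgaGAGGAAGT
Spi1, intron, WT A summit, chr2:91110207-91110307: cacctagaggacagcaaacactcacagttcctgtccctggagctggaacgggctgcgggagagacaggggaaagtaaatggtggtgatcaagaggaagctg
Spi1, intron, WT G summit, chr2:91109917-91110017: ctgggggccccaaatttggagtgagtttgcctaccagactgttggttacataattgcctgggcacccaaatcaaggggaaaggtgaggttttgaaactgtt
Fli1, intron, WT A summit, chr9:32508836-32508936: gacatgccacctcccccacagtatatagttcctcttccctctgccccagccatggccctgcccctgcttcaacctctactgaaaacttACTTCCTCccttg
Id2, far upstream, WT A summit, chr12:25207909-25208009: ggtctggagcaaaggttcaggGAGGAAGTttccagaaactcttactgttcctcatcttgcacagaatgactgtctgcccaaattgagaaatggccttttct
Ets2, downstream, WT A summit, chr16:95728854-95728954: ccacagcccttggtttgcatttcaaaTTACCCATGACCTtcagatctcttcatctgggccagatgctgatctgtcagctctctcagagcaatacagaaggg

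The second set holds windows of 4 of the 5 Zeb2 regions in both WT lists, leaving out the one at −160.4 kb, whose windows held no match, and the strongest peak in the neighbourhood of Irf8. Capitals mark a match to C/EBP (TTGCNNAA), AP-1 (TGANTCA) or RUNX (TGTGGTT) letters on either strand. The window at the Zeb2 gene start held no match.
Zeb2, gene start, WT A summit, chr2:45112059-45112159: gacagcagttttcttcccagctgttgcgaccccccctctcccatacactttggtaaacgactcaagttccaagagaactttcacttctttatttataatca
Zeb2, −159.4 kb, WT G summit, chr2:45276874-45276974: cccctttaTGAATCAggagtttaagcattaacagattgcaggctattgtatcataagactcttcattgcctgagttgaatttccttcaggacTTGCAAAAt
Zeb2, −161.9 kb, WT G summit, chr2:45279527-45279627: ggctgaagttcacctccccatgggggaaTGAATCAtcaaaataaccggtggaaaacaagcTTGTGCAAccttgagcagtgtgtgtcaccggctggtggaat
Zeb2, −1253.7 kb, WT A summit, chr2:46371017-46371117: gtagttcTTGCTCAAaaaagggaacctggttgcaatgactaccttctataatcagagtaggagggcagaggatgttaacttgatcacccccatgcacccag
Zeb2, −1253.7 kb, WT G summit, chr2:46371161-46371261: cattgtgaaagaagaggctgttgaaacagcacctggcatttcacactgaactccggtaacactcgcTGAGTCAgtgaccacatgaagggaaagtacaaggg
Irf8, far upstream, WT G summit, chr8:120686246-120686346: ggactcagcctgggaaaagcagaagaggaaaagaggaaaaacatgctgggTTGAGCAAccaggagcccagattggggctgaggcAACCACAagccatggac

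Of the 9 genes, 4 had a peak in WT A, against 10.4% of all protein-coding genes, and 5 had one in WT G, against 16.6%. None had a peak in KO A or in KO G, where 0.351% and 0.858% of all genes had one. Regions with a peak in both WT lists lay nearest to 3 of the 9 genes, Ets2, Fli1 and Zeb2, against 8.82% of all genes. Spi1, Egr2 and Id2 had peaks in a single WT list, and Spib, Irf8 and Irf4 had none in any list. The genes were chosen for their roles in myeloid cells with earlier results of these data known, so the shares are descriptions. The shares also make no allowance for the space in which the TSS of a gene is the closest. Its median over all genes was 47.2 kb. It was 132.2 kb for Egr2, 143.8 kb for Irf4, 151 kb for Fli1 and 202.1 kb for Ets2. For Irf8, Id2 and Zeb2 it was 209.2 kb, 720.6 kb and 1947 kb, and only Spi1 and Spib lay below the median.

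**Figure D1:**
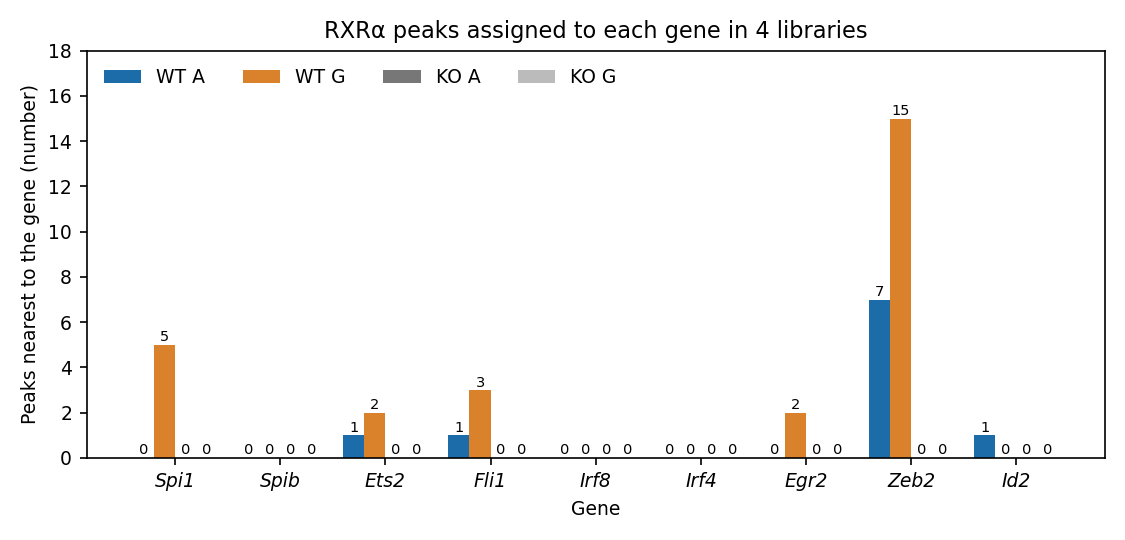
Number of peaks (vertical axis) nearest to each of the 9 genes (horizontal axis) in each of the 4 libraries, shown by colour. Zeb2 had 7 peaks in WT A and 15 in WT G, Spi1 had 5 in WT G alone, and no gene had a peak in KO A or KO G.

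Spi1 encodes PU.1. WT G had 5 peaks for it, and WT A, KO A and KO G had 0, for a mean of 2.50 ± 3.54 (SD, n = 2) in WT and 0 in KO. The WT libraries thus disagreed, and the exact permutation test over libraries (two-sided) gave p = 1. All 5 peaks were intergenic and upstream of the single annotated TSS, between −12.1 kb and −6.81 kb. The strongest lay at −6.81 kb (chr2:91089038-91089527), with a −log10 q of 8.04, a fold enrichment of 7.74 and 11 fragments at the summit, within the strongest 16.8% of the WT G list. Its PU.1 letters stood at chr2:91089250-91089257 on the plus strand, 47 bp from the summit, at the last bases of the window printed above. The peaks at −12.1 kb and −8.92 kb had a −log10 q of 2.63 and 6 fragments each. Those at −11.6 kb and −11.3 kb had a −log10 q of 3.61 and 7 fragments each. So 4 of the 5 Spi1 peaks were among the weaker WT G peaks, whose median was a −log10 q of 4.64 and 8 fragments.

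The assignment space of Spi1, in which its TSS is closer than that of any other protein-coding gene, is small, 23.9 kb against a median of 47.2 kb over all genes, because Slc39a13 starts upstream and Mybpc3 downstream. Peaks near Spi1 that the rule gives to these neighbours were therefore listed too. A region in both WT lists, chr2:91109761-91110324, lay within a Spi1 intron, 14.0 kb downstream of its TSS, but 8.10 kb from that of Mybpc3 (a sarcomere gene). The WT A peak had a −log10 q of 7.31, a fold enrichment of 6.54 and 17 fragments. The WT G peak had a −log10 q of 9.82, a fold enrichment of 8.55 and 13 fragments. The WT A and WT G summits were 290 bp apart, and no KO peak overlapped it. In WT G, 2 peaks given to Slc39a13 (a zinc transporter gene) lay 12.8 kb and 14.8 kb upstream of Spi1, with a −log10 q of 9.26 and 6.88. The first of these lay beyond the Spi1 peaks and was stronger than any of them. A further Slc39a13 peak 25.4 kb upstream and a further Mybpc3 peak 16.3 kb downstream of the Spi1 TSS were weak, with a −log10 q of 2.63 and 3.14. Within 100 kb of the Spi1 TSS there were 10 peaks in WT G, 1 in WT A and none in KO A or KO G, and the WT A peak was the intronic one. The nearest KO peak lay 876.1 kb away, in KO G.

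The other ETS genes were Spib, Ets2 and Fli1. Spib, a close relative of PU.1 best known from B cells and plasmacytoid dendritic cells, had no peak. The nearest peak to Spib was 546.1 kb away in WT A and 285.4 kb away in WT G, and its assignment space was 12.1 kb. Ets2, an ETS factor downstream of growth factor and Ras signalling, had 1 peak in WT A, 2 in WT G and none in either KO list, a mean of 1.5 ± 0.707 (SD, n = 2) in WT. Fli1, an ETS factor of blood and endothelial cells, had 1 peak in WT A, 3 in WT G and none in either KO list, a mean of 2 ± 1.41 (SD, n = 2) in WT. Having no KO peak is not particular to these genes. Of all protein-coding genes, only 0.351% had a peak in KO A and 0.858% in KO G. For both Ets2 and Fli1 the exact permutation test (two-sided) gave p = 0.333. This is the smallest p that 2 libraries against 2 can give, so no count here can reach 0.05.

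The Ets2 region in both WT lists, chr16:95728794-95729029, was intergenic, 26.8 kb downstream of the TSS. It stood within the strongest 75.1% of the WT A list and 32.9% of the WT G list. WT A gave a −log10 q of 4.71 with 16 fragments, and WT G one of 5.73 with 9 fragments. The summits were 31 bp apart. The DR1 match printed in capitals lay at chr16:95728880-95728892 on the minus strand, 18 bp from the WT A summit, and was not whole within the window of WT G. The other WT G peak of Ets2, at 6.79 kb in an intron, had a −log10 q of 4.64 and 8 fragments.

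The Fli1 region in both WT lists, chr9:32508630-32509481, was among the stronger of the 9 genes. It lay 32.5 kb downstream of the TSS, inside the Fli1 gene and in an exon of the overlapping gene model Gm38346 and not of Fli1. The −log10 q was 12.7 in WT A and 11.3 in WT G, within the strongest 13.4% and 8.99% of each list, with a fold enrichment of 8.92 and 9.31 and with 23 and 14 fragments. The summits were 68 bp apart. PU.1 letters lay at chr9:32508924-32508931 on the minus strand, 42 bp from the WT A summit, and outside the WT G window. A second WT G peak 31.6 kb downstream, with a −log10 q of 4.64, held RUNX letters 21 bp from its summit. The third, at 40.7 kb, had a −log10 q of 3.61 and 7 fragments. Fli1 had 6.62 peaks per Mb of its assignment space in WT A and 19.9 in WT G, against 1.74 and 3.58 over all genes. Ets2 had 4.95 and 9.89. Not every gene was above the value of all genes. Id2 had 1.39 in WT A and 0 in WT G. Spi1 and Egr2 had 0 in WT A, and 209.5 and 15.1 in WT G. Spib, Irf8 and Irf4 had 0 in both.

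Irf8, which with PU.1 directs monocyte and dendritic cell fate, had no peak by the nearest TSS, and neither did Irf4, its close relative. Irf8 nevertheless had peaks within 100 kb, 2 in WT A and 5 in WT G, all upstream and all given to other genes. A region in both WT lists, chr8:120685780-120686862, lay at −50.0 kb and was given to Cox4i1 (a subunit of cytochrome c oxidase). Its −log10 q was 7.14 in WT A and 17.3 in WT G, with 16 and 18 fragments and a fold enrichment of 6.72 and 12.3. In WT G it stood within the strongest 2.13% of the list, which made it stronger there than any peak of the 9 genes. Its WT G window, printed above, held C/EBP letters that began at the summit base and RUNX letters that began 34 bp from it. A second such region lay at −92.4 kb, given to 1190005I06Rik, with a −log10 q of 6.16 and 4.64. The remaining WT G peaks, 43.7 kb, 44.2 kb and 67.4 kb upstream of Irf8, had a −log10 q of 9.26, 6.88 and 3.61. Irf4 had no peak within 100 kb in any list. Its nearest peak was 664.1 kb away in WT A and 172.3 kb away in WT G.

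Egr2, a zinc finger factor that macrophages use during differentiation and in response to cytokines, had 0 peaks in WT A, 2 in WT G and none in the KO lists (exact permutation test, two-sided, p = 1). They flanked the start of the gene. The upstream peak at −0.562 kb, chr10:67537181-67537433, lay in the promoter and had a −log10 q of 3.61 and 7 fragments. Repeat-masked bases made up 65.4% of its window, the highest share of the peaks of the 9 genes. The other lay inside the gene in an intron and had a −log10 q of 4.64 and 8 fragments. Egr2 has 3 annotated TSSs, and this peak lay 0.573 kb downstream of a different TSS from that of the upstream peak. Next to Egr2, 3 regions in both WT lists were given to Ado (a thiol dioxygenase gene). The closest, chr10:67545043-67545466, lay 6.57 kb from Egr2 in the exon of Ado, with −log10 q values of 10.6 (WT A) and 5.45 (WT G) and summits 16 bp apart. The others lay 60.2 kb and 94.7 kb from Egr2.

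**Figure D2:**
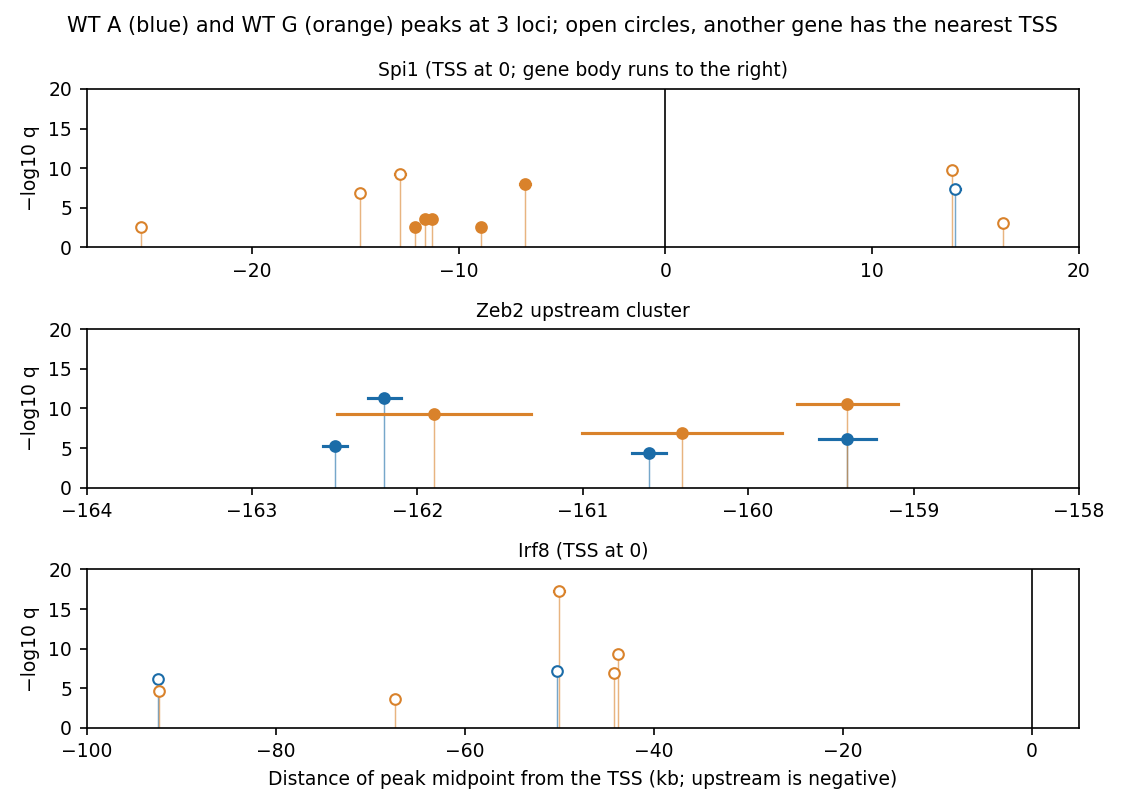
Peaks at the Spi1 locus, at the upstream cluster of Zeb2 and at the Irf8 locus. The horizontal axis is the distance of the peak midpoint from the TSS in kb and the vertical axis is −log10 q; bars at the points span the peak width, blue is WT A and orange is WT G. Filled circles are peaks for which the named gene has the nearest TSS, and open circles are peaks given to a neighbouring gene. The −50.0 kb peak of Irf8 reached 17.3 in WT G, and the intronic Spi1 region had a peak in both libraries.

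Zeb2 encodes a zinc finger and homeobox repressor that takes part in tissue macrophage identity. WT A had 7 peaks, WT G had 15, and neither KO list had any, for a mean of 11 ± 5.66 (SD, n = 2) in WT. The genotypes did not overlap, with p = 0.333 in the exact permutation test (two-sided). Zeb2 held most of the WT peaks of the 9 genes, and 5 of their 7 regions in both WT lists. With Zeb2 itself counted, 82 genes had at least as many peaks as Zeb2 in WT A, where the highest number was 26. In WT G there were 53 such genes, and the highest number was 37. The median gene with a peak had 1. Zeb2 stands next to a large gene desert, and its assignment space was 1947 kb. Per Mb of that space it had 3.6 peaks in WT A and 7.70 in WT G, a lower density than that of Fli1 or Ets2 in either library and above the 1.74 and 3.58 of all genes.

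Zeb2 has 8 annotated TSSs, and its peaks fell into a few groups. At the start of the gene, a region in both WT lists, chr2:45112040-45112414, lay 0.663 kb downstream of the nearest of these, within the promoter window of the antisense gene Zeb2os. WT A gave it a −log10 q of 10.2 and 20 fragments, WT G a −log10 q of 5.73 and 9 fragments. The peaks overlapped by 106 bp, and their summits were 102 bp apart. Repeat-masked bases made up 63.4% of the WT G window and 0% of the WT A window. In WT G, 3 further peaks lay in the promoter class of Zeb2 or of the non-coding genes there, with a −log10 q of 3.61, 4.64 and 6.88. Within the gene, WT A had an intronic peak 60.9 kb from the TSS with a −log10 q of 5.22, and WT G had one at 61.15 kb with a −log10 q of 2.63 and a window that was 52.5% repeat-masked, but these did not overlap. WT G alone had intronic peaks at 5.89 kb and 24.5 kb, with a −log10 q of 2.63 and 3.61, and an intergenic peak at −144.6 kb, with a −log10 q of 5.87.

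The second group was a cluster between −159.4 kb and −162.5 kb, with 4 peaks in WT A and 3 in WT G that formed 3 regions in both lists. The region at −159.4 kb, chr2:45276505-45277111, had −log10 q values of 6.16 (WT A) and 10.5 (WT G) and summits 73 bp apart. Both windows held the same AP-1 letters at chr2:45276882-45276888, which lie 34 bp from the WT A summit and 39 bp from the WT G summit. The middle region, chr2:45277205-45278415, was the weakest of the cluster in both libraries, with a −log10 q of 4.31 and 6.88 and summits 263 bp apart. The third, chr2:45278713-45279926, had a −log10 q of 11.3 and 9.26, with 21 and 12 fragments. Its summits were 36 bp apart, and the same C/EBP letters at chr2:45279587-45279594 lay within both windows. The AP-1 letters of this region lay 19 bp from the WT G summit, and from the WT A summit they were beyond 50 bp but within 100 bp. The cluster lay closest to the start of Vis1, a long non-coding RNA gene, at distances of −0.869 kb to −3.94 kb, and Zeb2 was only the nearest protein-coding gene.

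The strongest region of the 9 genes was also the most distant. It lay at −1253.7 kb from Zeb2, chr2:46370616-46371519, with −log10 q values of 15.8 (WT A) and 14.5 (WT G), a fold enrichment of 10.3 and 10.96, and 25 and 16 fragments. It stood within the strongest 6.44% of the WT A list and 3.62% of the WT G list. The summits were 144 bp apart, with C/EBP letters in the WT A window and AP-1 letters in the WT G window. Of the 3423 regions in both WT lists, it was the single region more than 1 Mb from the nearest protein-coding TSS. Further out, WT G had 3 peaks between −1324.9 kb and −1325.9 kb, around the start of the non-coding gene Gm13470, with a −log10 q of 3.87, 3.87 and 5.73, and WT A had none.

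**Figure D3:**
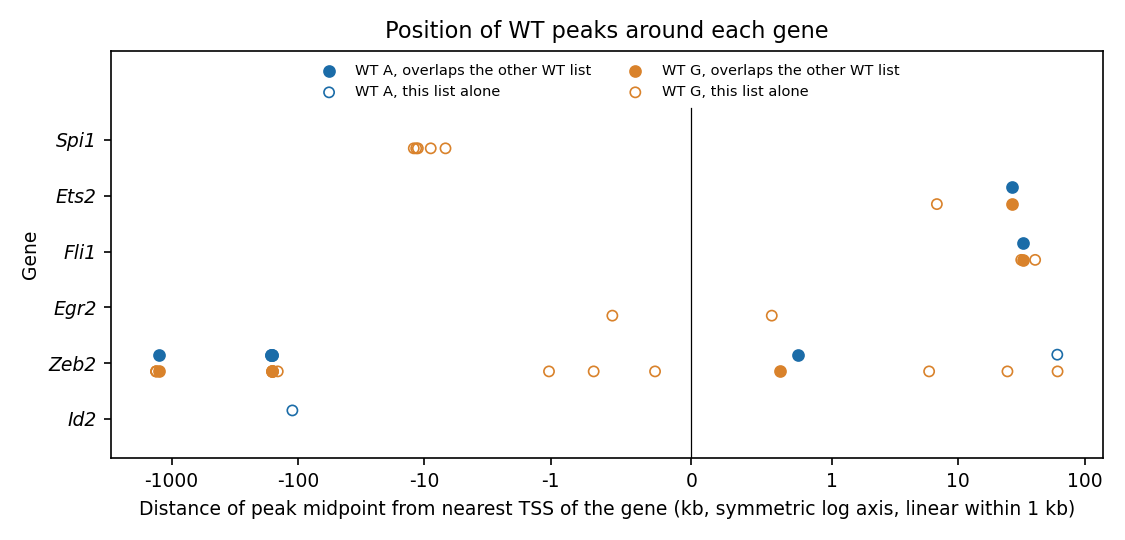
Position of the peaks of the 9 genes by library. The horizontal axis is the distance from the nearest TSS in kb, upstream to the left, on a scale that is linear near 0 and logarithmic beyond; rows are the genes with a peak, blue is WT A and orange is WT G. Filled circles overlap a peak of the other WT list and open circles do not. Zeb2 peaks extended to −1325.9 kb, and the 5 Spi1 peaks lay between −12.1 kb and −6.81 kb.

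Id2, an inhibitor of E proteins that marks many innate immune lineages, had 1 peak in WT A and none in WT G, KO A or KO G (exact permutation test, two-sided, p = 1). It lay at −110.8 kb, chr12:25207866-25208037, in an intron of the non-coding gene Gm36287. Its −log10 q was 8.06, its fold enrichment 7.501 and its fragments 18, within the strongest 28.1% of WT A. The PU.1 letters at chr12:25207930-25207937 lay on the plus strand, 25 bp from the summit. In WT G, the nearest peak to Id2 was 603.2 kb away.

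Set side by side, the 10 WT A peaks of the 9 genes had a median −log10 q of 7.11, from 4.31 to 15.8, and 13 to 25 fragments. All WT A peaks had a median of 7.14. The 27 WT G peaks had a median of 4.64, from 2.63 to 14.5, and 6 to 16 fragments, and all WT G peaks had the same median of 4.64. Of the WT A peaks, 8 of 10 overlapped a WT G peak, or 80% (95% exact Clopper-Pearson interval 44.4% to 97.5%), against a background of 83.2% in that list. For WT G, 7 of 27 overlapped a WT A peak, or 25.9% (11.1% to 46.3%), against a background of 36.1%. The intervals cover counting error only and include both background shares.

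**Figure D4:**
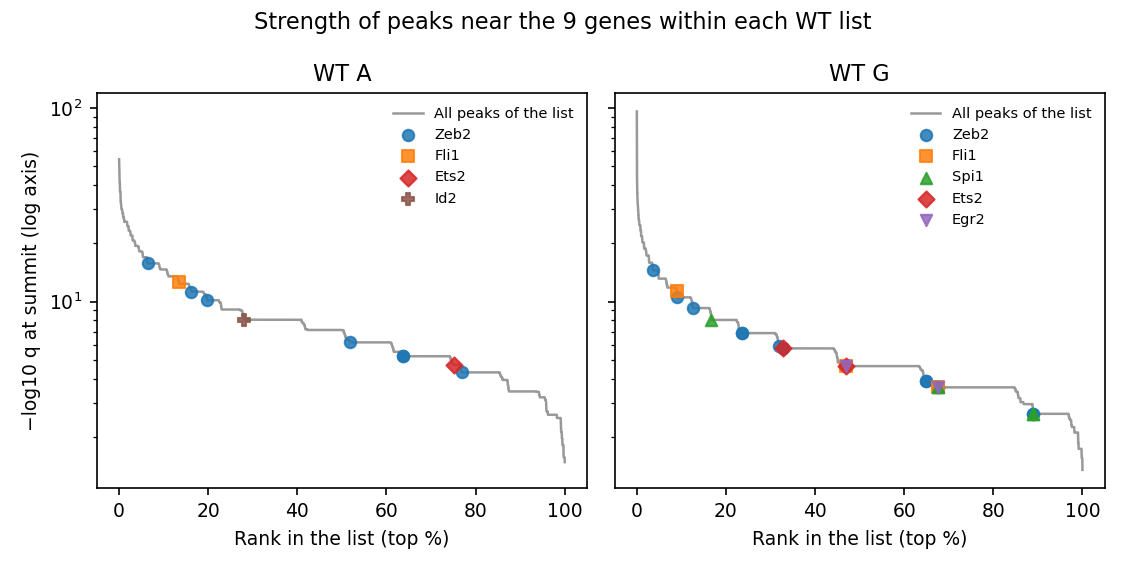
Strength of the peaks of the 9 genes in WT A (left) and WT G (right). The horizontal axis is the rank of a peak as the top percent of its list, the vertical axis is its −log10 q on a log axis, the grey line is all peaks of the list, and colours and marker shapes are genes. The −1253.7 kb region of Zeb2 led in both libraries, at 15.8 and 14.5, and the other peaks spread down to 4.31 and 2.63.

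None of the 7 regions in both WT lists had an overlapping KO peak, where 94.1% of all 3423 such regions had none. So the 7 regions were at the background, and this count says nothing particular to the 9 genes. None of the 9 genes had a KO peak within 100 kb, where 3.12% of all protein-coding genes had one in KO A or KO G, so this too is near the background. The nearest ranged from 710.7 kb away for Egr2 in KO G to 31731.9 kb away for Egr2 in KO A. Both KO libraries were derived to be deeper than WT G. The lists do not give signal where no peak was called, so KO signal under the threshold was not measured. The WT A and WT G summits of the 7 regions were 31 to 263 bp apart, where the median over all regions was 96 bp. Of the 7, 4 lay more than 100 kb from the nearest protein-coding TSS, all at Zeb2, where 8.68% of all regions did.

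By position, the promoter class held 2 of the 10 peaks in WT A and 6 of the 27 in WT G (from 1 kb before to 100 bp past a TSS of any gene), that is 20% and 22.2%, against 11.1% and 15.5% of all peaks. The WT A promoters were those of the non-coding genes Zeb2os and Vis1. Most of the rest were intergenic, 5 in WT A and 11 in WT G, or intronic, 2 and 8. The remaining 1 and 2 were the Fli1 peaks in the exon of Gm38346. When any region in both WT lists within 100 kb of a TSS was counted, whichever gene was nearest, 6 of the 9 genes had one, against 26.1% of all genes. These were Spi1, Ets2, Fli1, Irf8, Egr2 and Zeb2, with 9 regions in all, none with a KO peak. This count was added after the data were seen.

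Motif letters were few. PU.1 letters lay within 50 bp of the summit in 2 of the 10 WT A peaks (4.50% of all WT A peaks) and in 1 of the 27 WT G peaks (2.61%). C/EBP letters were in 2 and 5 peaks (11.2% and 8.13% of all), AP-1 letters in 1 and 4 (6.93% and 5.69%), and RUNX letters in 0 and 1 (5.85% and 4.40%). A DR1 was in 1 WT A peak (6.04%), at Ets2, and in 0 WT G peaks (3.34%). The ETS-IRF composite element was in 0 peaks of either list (2.11% and 1.68%). At the Zeb2 cluster, 1 C/EBP match and 1 AP-1 match were the same bases in windows of both libraries, so they are counted in both lists. The median GC content of the windows was 47.0% in WT A and 46.5% in WT G, against 45.5% and 46.5% for all windows.

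For 28 related genes of the ETS, IRF, EGR, ZEB and ID families and their partners, 13 had a peak in WT G, 9 in WT A, 1 in KO G and 0 in KO A. A region in both WT lists was nearest to 9 of them. Over all protein-coding genes these shares were 16.6% in WT G, 10.4% in WT A, 0.858% in KO G, 0.351% in KO A and 8.82% for both WT lists. By family, such regions were found at 4 of 11 ETS genes, 1 of 6 IRF genes, 1 of 4 EGR genes, 3 of 6 ID and E protein genes, and not at Zeb1. The strongest were at Egr3, a relative of Egr2, at −11.3 kb with −log10 q values of 24.6 (WT A) and 14.5 (WT G). Next came Elk3, an ETS repressor, at 23.7 kb with 22.0 and 11.8, where KO G also had a peak. Irf2, a relative of Irf8, had 10.2 and 20.3 at 92.7 kb. Id3, a relative of Id2, had 7.14 and 9.26 at −0.266 kb, in its promoter.

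The genes most like Spi1 and Zeb2 were sought by the distance between the strongest −log10 q values in the 4 libraries, with 0 where there was no peak. Since −log10 q repeats among peaks with the same number of fragments, 69 other genes were at distance 0 from Spi1 and 11 from Zeb2. The first in alphabetical order were 1810010H24Rik, Abtb1 and Acaa2 for Spi1, and Atp6v0d2, Cidec and Clvs1 for Zeb2. With 4 libraries this measure does not separate these genes.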

How the data were processed

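RXRα HT-ChIPmentation peaks from sorted AMs of 2 WT and 2 KO libraries were used, grouped by the genotype in the sample labels. The authors aligned trimmed reads (Cutadapt) to mm10 by Bowtie2, dropped duplicates, and ran MACS3 on each library with the input as control at q 0.05, without pooling. The deposited fold enrichment is the ratio of ChIP pileup over local background, with 1 added to both. Deposited −log10 p and −log10 q values belong to the summit, and the deposited score is the −log10 q times 10 without its decimals. Depth can change which weak peaks are called.

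Peaks were assigned, overlapped (at least 1 bp) and annotated with GENCODE M21 basic, using pandas 2.3.3, numpy 2.4.6, pysam 0.24.0 and scipy 1.17.1 under Python 3.11.15. Fragments were solved as whole numbers whose Poisson tail matched the deposited −log10 p within 0.05, which succeeded for every peak; WT A needed a scale of 0.884. These values were not checked against the read numbers in the supplement, and fragments are not replicates. Motifs were sought on both strands within 50 bp of summits. Single counts were compared by exact permutation tests over libraries. The solving of fragments at a given scale, the nearest TSS, the overlap of peaks and the search for PU.1 letters were tested on simulated data. The other steps were not.

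The 9 genes and the lists were chosen with earlier results of these data known. By rule, all 9 genes were named with every region in both WT lists or their strongest peaks, the 4 related genes with the highest summed −log10 q, and the 3 genes closest in pattern to Spi1 and Zeb2. Weaker, neighbouring and nearest KO peaks were named after their values were seen.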

Additional observations from a re-analysis of the deposited data

How the results depend on the processing

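WT exceeded KO by 18.5 peaks of the 9 genes on average, since KO had 0. This was 9.5 with a −log10 q of at least 5, 10.5 with WT G reduced to as many peaks as WT A, and 5 with genes of any type as the nearest. Leaving out 1 library gave a range of 10 to 27, with 10 without WT G and 27 without WT A. With the letters A and G as pairs (replicate block) it stayed 18.5, from 10 for A and 27 for G. The labels do not say that the letters pair animals.

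The 7 regions in both WT lists, and the 7 of them with no KO peak, became 3 with an overlap of at least 50% of both peaks and 0 with genes of any type. The 3 genes with such a region became 0 with genes of any type, and 6 with any TSS within 100 kb, an alternative chosen after seeing the data. Non-coding genes start closer to these regions, which is how this setting moves the counts. The 80% of WT A peaks overlapping WT G became 30% at 50% overlap. The 25.9% of WT G peaks overlapping WT A became 45.5% with a −log10 q of at least 5, 63.6% with WT G reduced to as many peaks as WT A, 11.1% at 50% overlap and 0% with genes of any type, where WT A had no peak left and its own share could not be given. The DR1 count of 1 became 5 with windows of 100 bp on each side and 0 with at most 1 mismatch. Promoter peaks rose from 2 to 5 in WT A and from 6 to 13 in WT G with promoters of 3 kb on each side, by construction. A peak in WT G could rest on 5 fragments, and a missing peak is not a measure of no binding. How depth sets the length of the lists was not tested.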
